A study of Mus musculus with 11 samples.

Results

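Glycosphingolipids are sugar chains built on the lipid ceramide, and the 10 genes described here encode the enzymes that start these chains and extend them into gangliosides or sulfatide. All 10 (Ugcg, B4galt5, B4galt6, St3gal5, St8sia1, St8sia5, B4galnt1, B3galt4, Gal3st1 and Ugt8a) had a probe set whose identifier carries one of their RefSeq transcripts, 1 probe set each, out of 909 genes that could be named on the array. They were taken by name, with earlier results of these data known. The cells were 3 flow-sorted populations of splenic CD4+ T cells from female C57BL/6 mice, with no treatment or altered gene named in any group. Treg cells were sorted as CD25+ CD45RBlow (n = 3, replicates 1, 2 and 4). The CD25- cells were divided into CD45RBlow, labelled activated/memory (n = 4), and CD45RBhigh, labelled naive (n = 4). The CD25- mice were 4 to 6 weeks old, and no age is given for the Treg samples, so age and population cannot be told apart in comparisons with Treg cells. Treg cells were defined by surface markers alone, and nothing says that replicates came from separate animals, so the spread behind each p-value is that of these 11 arrays and may be technical.

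In the Golgi, Ugcg adds glucose to ceramide, and B4galt5 or B4galt6 adds galactose to give lactosylceramide, the common precursor. St3gal5 adds sialic acid to make GM3, St8sia1 adds a further sialic acid to make GD3, and B4galnt1 and B3galt4 then lengthen these chains into complex gangliosides, on which St8sia5 can act late. A separate branch begins with Ugt8a, which makes galactosylceramide, and Gal3st1 sulfates that lipid to sulfatide. In T cells gangliosides lie in the plasma membrane near the antigen receptor, and in mice lacking GM3 synthase the response of CD4+ T cells through that receptor is impaired.

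The promoters of Ugcg, St8sia1 and St3gal5 are shown first, because these 3 genes differed in every comparison below. RefSeq promoter sequences (build GRCm38.p6) were at hand for 7 of the 10 genes. Each line gives the 250 bases before the start site on the gene's own strand, at chr4:59189300-59189549 on the plus strand for Ugcg, chr6:142964453-142964702 on the minus strand for St8sia1 and chr6:72097358-72097607 on the plus strand for St3gal5. Capitals mark matches to the motifs searched: the GC box GGGCGG, the CCAAT box (as its name spells), the TATA motif TATAAA, the forkhead core TGTTTAC and the ETS core CGGAAG, each searched on both strands.
Ugcg: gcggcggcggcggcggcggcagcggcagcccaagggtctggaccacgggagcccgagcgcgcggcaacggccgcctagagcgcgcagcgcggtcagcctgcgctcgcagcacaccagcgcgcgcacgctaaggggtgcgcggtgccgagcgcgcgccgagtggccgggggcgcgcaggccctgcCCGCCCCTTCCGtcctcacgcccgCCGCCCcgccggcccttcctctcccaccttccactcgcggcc
St8sia1: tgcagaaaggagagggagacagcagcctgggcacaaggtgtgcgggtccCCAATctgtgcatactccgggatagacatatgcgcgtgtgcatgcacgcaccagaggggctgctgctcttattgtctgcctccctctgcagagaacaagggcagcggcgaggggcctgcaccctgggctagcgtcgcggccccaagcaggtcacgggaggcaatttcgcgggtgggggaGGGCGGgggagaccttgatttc
St3gal5: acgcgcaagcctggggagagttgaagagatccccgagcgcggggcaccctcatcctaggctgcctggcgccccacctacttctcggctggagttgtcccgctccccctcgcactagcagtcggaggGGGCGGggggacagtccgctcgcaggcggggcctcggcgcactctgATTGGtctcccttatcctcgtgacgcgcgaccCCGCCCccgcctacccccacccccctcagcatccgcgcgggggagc
The Ugcg window held 2 GC boxes and 1 ETS core, which directly follows the first GC box. The St8sia1 window held 1 GC box and 1 CCAAT box, and the St3gal5 window held 2 GC boxes and 1 CCAAT box. Among 32851 promoter windows of the same length, 32.7% held a GC box, 33.8% a CCAAT box and 13.6% an ETS core. The TATA box (12.4% of all windows) and the forkhead core (3.17%) had no match in these windows. A match describes the letters only and is no evidence of binding.

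The labels were checked against markers of the sort. Il2ra, which encodes CD25 and so follows from the gate, averaged 9.84 ± 0.17 (SD, n = 3) on the log2 scale in Treg cells, 6.17 ± 0.36 (SD, n = 4) in CD45RBlow cells and 4.07 ± 0.27 (SD, n = 4) in CD45RBhigh cells. The 9 measured regulatory T cell markers, Il2ra among them, were all higher in Treg cells than in either other population. All 9 were also higher in CD45RBlow than in CD45RBhigh cells. Array means over the list were 9.09 to 9.56 in Treg, 6.72 to 7.49 in CD45RBlow and 5.03 to 5.31 in CD45RBhigh cells. Foxp3, Cd4 and Ptprc were not used here. Cd44, an adhesion receptor high on activated and memory cells, averaged 9.25 ± 0.49 (SD, n = 3) in Treg, 9.31 ± 0.63 (SD, n = 4) in CD45RBlow and 7.81 ± 0.38 (SD, n = 4) in CD45RBhigh cells. Its difference between Treg and CD45RBhigh cells, 1.44, was 1.22 (limma adjusted p = 0.0596) without Treg replicate 1. Ccr7, the lymph node homing receptor, averaged 10.37 ± 0.12 (SD, n = 3) in Treg, 10.69 ± 0.17 (SD, n = 4) in CD45RBlow and 11.38 ± 0.13 (SD, n = 4) in CD45RBhigh cells. Some markers of other cells moved with the populations too. Of 4 B cell markers 3 were higher in Treg than in CD45RBhigh cells, with Fcer2a near background throughout. Array means over the list were 6.65 to 6.73 in Treg, 5.97 to 6.20 in CD45RBlow and 5.86 to 5.93 in CD45RBhigh cells. Cd74 made up most of that gap, at 8.95 in Treg, 7.01 in CD45RBlow and 6.49 in CD45RBhigh cells. Cd22 and Cd72 differed by 0.29 and 0.54 between Treg and CD45RBhigh cells. Against CD45RBlow cells Cd22 was lower in Treg cells (-0.30) and Cd72 higher (0.85). Of 5 natural killer and CD8 T cell markers 3 were lower in Treg than in CD45RBhigh cells, with array means of 3.38 to 3.54 in Treg, 4.55 to 4.91 in CD45RBlow and 4.73 to 4.97 in CD45RBhigh cells. Klrd1 made up most of that gap, at 3.93 in Treg, 8.28 in CD45RBlow and 9.22 in CD45RBhigh cells, and the other 4 differed by -0.45 to -0.07 between Treg and CD45RBhigh cells. The 11 myeloid and dendritic markers had array means of 3.61 to 3.67 in Treg, 3.57 to 3.65 in CD45RBlow and 3.64 to 3.73 in CD45RBhigh cells, with 6 near background in each population. Selp, the 1 measured platelet marker, read 4.95 to 5.28 in Treg, 4.51 to 4.79 in CD45RBlow and 4.62 to 4.79 in CD45RBhigh arrays. The part of these markers in the results below was not tested. Replicates 1 and 2 also stood apart from replicates 3 and 4 in every population. With the population in the model, 257 probe sets (20.6%) differed between these replicate sets, a split chosen after the data were seen.

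Values below are log2 expression as deposited, tests are limma's moderated test on all 11 arrays, and a gene is said to have risen or fallen at a Benjamini-Hochberg adjusted p under 0.05 over all 1246 probe sets. In Treg against CD45RBhigh cells St3gal5 rose and Ugcg and St8sia1 fell, 3 of 10 genes, where 18.9% of all probe sets passed. The same 3 genes moved the same way in Treg against CD45RBlow cells, where 12.5% of all probe sets passed, and in CD45RBlow against CD45RBhigh cells, where 12.6% did. At an unadjusted p under 0.05 the members that passed were 1 higher and 3 lower, 1 higher and 2 lower, and 1 higher and 4 lower, where 30.0%, 22.6% and 28.4% of all probe sets passed. Populations did not overlap for 3 of 10 genes in each comparison, beside 25.0%, 21.3% and 17.8% of all probe sets. The 3 comparisons share arrays, so they are not independent of each other. The median log2 fold change over the 10 genes was -0.07, -0.10 and -0.12 in the 3 comparisons, beside -0.04, 0.04 and -0.08 over all probe sets.

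**Figure D1:**
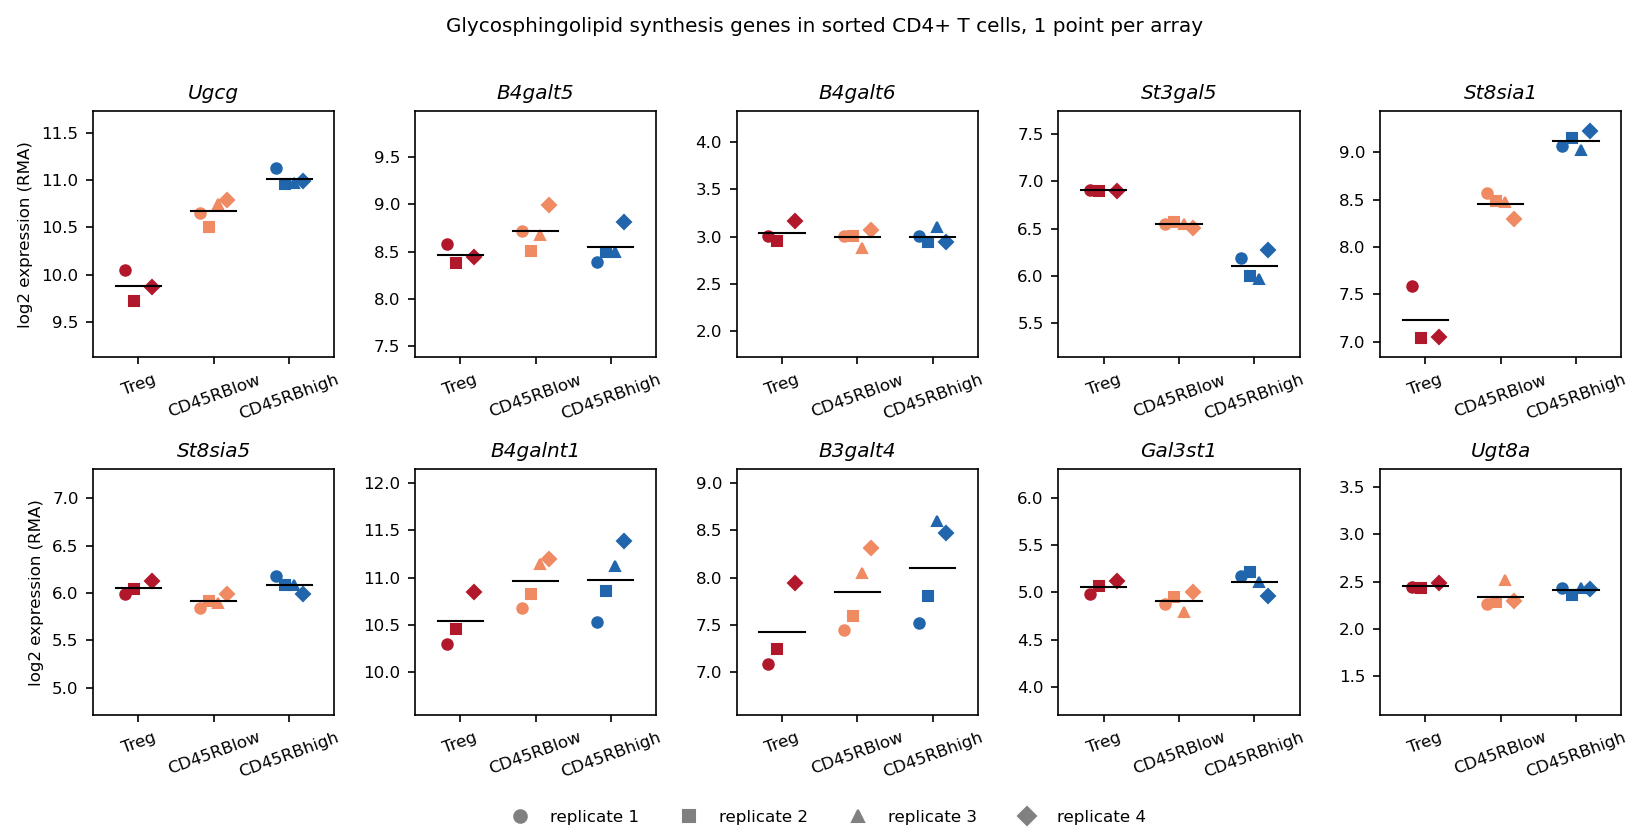
Log2 expression of each of the 10 genes on every array, by population, with 1 point per array shaped by replicate number, a bar at the population mean, and 1 span of 2.6 log2 units on every vertical axis. Ugcg and St8sia1 step up from Treg to CD45RBlow to CD45RBhigh arrays, St3gal5 steps down, and B4galnt1 and B3galt4 spread by replicate number within each population.

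Ugcg, which makes glucosylceramide and so feeds the gangliosides built on lactosylceramide, read 10.05, 9.72 and 9.87 in Treg replicates 1, 2 and 4. It read 10.65, 10.50, 10.75 and 10.79 in CD45RBlow replicates 1 to 4, and 11.13, 10.96, 10.97 and 10.99 in CD45RBhigh replicates 1 to 4. The 3 populations did not overlap, with every Treg array lowest and every CD45RBhigh array highest. Ugcg was 2.19-fold lower in Treg than in CD45RBhigh cells (log2 fold change -1.13, SE 0.09, limma adjusted p = 4.22e-06) and 1.73-fold lower than in CD45RBlow cells (-0.79, SE 0.09, limma adjusted p = 0.000123). The smaller step between CD45RBlow and CD45RBhigh cells, -0.34 (SE 0.09, limma adjusted p = 0.0253), lost its call without CD45RBlow replicate 1 (-0.33, adjusted p = 0.0720) or 2 (-0.28, 0.0743) or CD45RBhigh replicate 1 (-0.30, 0.0753). In such sorted populations fewer expressing cells and less RNA per cell cannot be told apart. The Ugcg probe set, like those of St8sia1, St8sia5 and Gal3st1, has the suffix s, so its signal may not be specific to 1 transcript.

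St8sia1, the GD3 synthase at the entry to the b-series of gangliosides, showed the largest change of the 10 genes in each comparison. It read 7.59, 7.04 and 7.05 in Treg replicates 1, 2 and 4. It read 8.57, 8.49, 8.48 and 8.30 in CD45RBlow replicates 1 to 4, and 9.07, 9.15, 9.03 and 9.23 in CD45RBhigh replicates 1 to 4. Again no 2 populations overlapped, and Treg replicate 1 lay above the other 2 Treg arrays but below every CD25- array. The level was 3.72-fold lower in Treg than in CD45RBhigh cells (log2 fold change -1.89, SE 0.13, limma adjusted p = 7.24e-07) and 2.35-fold lower than in CD45RBlow cells (-1.24, SE 0.13, limma adjusted p = 4.57e-05). It was 1.58-fold lower in CD45RBlow than in CD45RBhigh cells (-0.66, SE 0.12, limma adjusted p = 0.00283). Leaving out each array in turn kept all 3 calls, with values from -2.08 to -1.80, from -1.42 to -1.14 and from -0.70 to -0.60.

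St3gal5, the GM3 synthase that places the first sialic acid and supplies the substrate of St8sia1, moved in the other direction. It read 6.91, 6.90 and 6.90 in Treg replicates 1, 2 and 4. It read 6.55, 6.57, 6.55 and 6.51 in CD45RBlow replicates 1 to 4, and 6.19, 6.00, 5.97 and 6.27 in CD45RBhigh replicates 1 to 4. The Treg arrays were highest and hardly differed among themselves (SD 0.0041), and the populations did not overlap. The level was 1.74-fold higher in Treg than in CD45RBhigh cells (log2 fold change 0.80, SE 0.07, limma adjusted p = 1.12e-05) and 1.28-fold higher than in CD45RBlow cells (0.36, SE 0.07, limma adjusted p = 0.00769). It was 1.36-fold higher in CD45RBlow than in CD45RBhigh cells (0.44, SE 0.07, limma adjusted p = 0.00109). Within replicates 1 and 2 alone, and within replicates 3 and 4 alone with 1 Treg array, the 3 genes kept their directions in all 3 comparisons. Treg against CD45RBhigh cells gave -1.16 and -1.11 for Ugcg, -1.80 and -2.08 for St8sia1, and 0.81 and 0.78 for St3gal5, the last value without a call (limma adjusted p = 0.0635). In CD45RBlow against CD45RBhigh cells Ugcg was -0.47 (limma adjusted p = 0.0563) and -0.21 (0.238), and St8sia1 -0.58 (0.0656) and -0.74 (0.0444). St3gal5 within replicates 3 and 4 was 0.37 (limma adjusted p = 0.306) in Treg against CD45RBlow cells and 0.41 (0.193) in CD45RBlow against CD45RBhigh cells. GM3 synthase and GD3 synthase transcripts thus ran in opposite order over the 3 populations, and both neighbours in each order differed past the threshold.

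**Figure D2:**
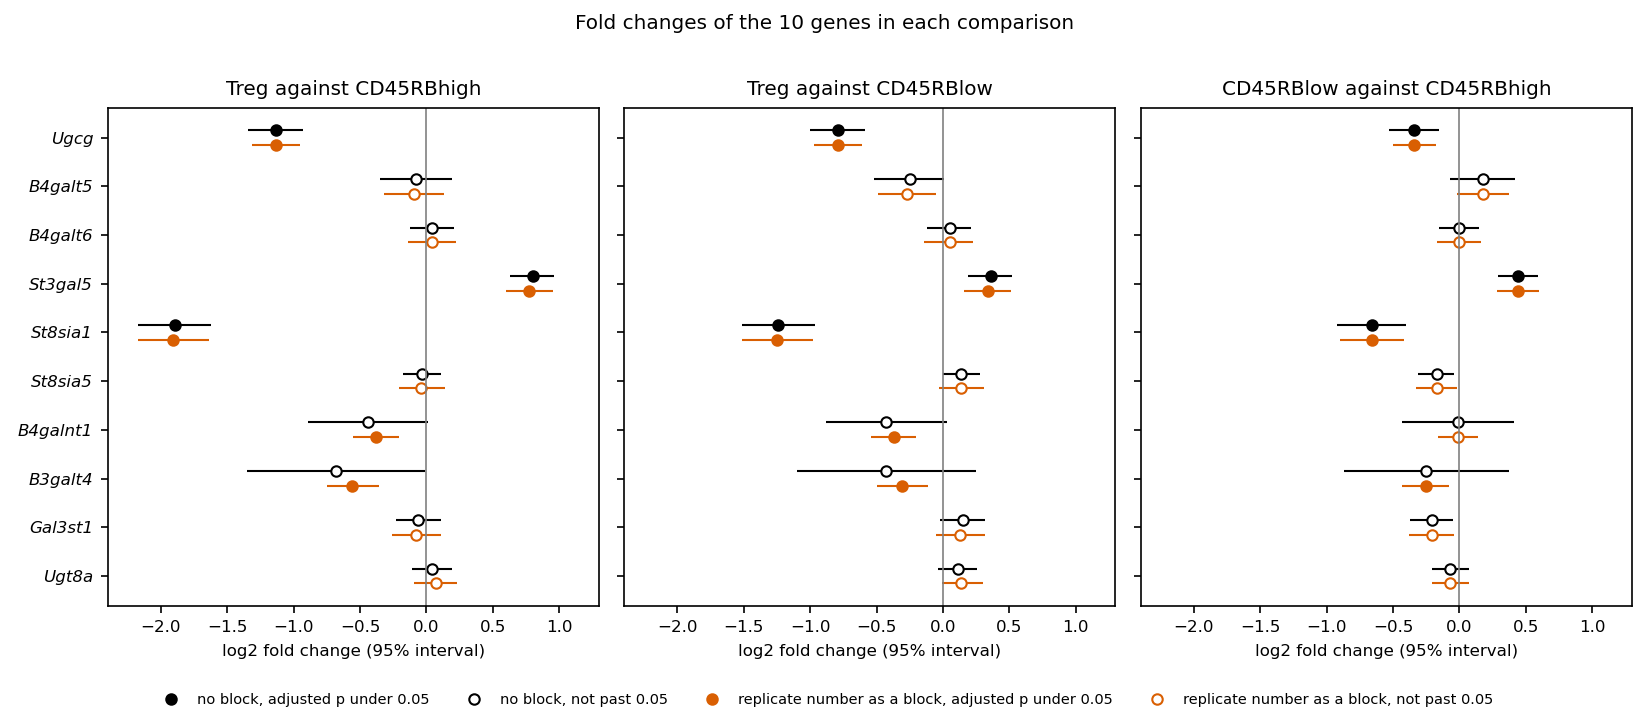
Log2 fold changes of the 10 genes with 95% intervals in each comparison, from the fit without a block (black) and with the replicate number as a block (orange), filled where the adjusted p is under 0.05. St8sia1 and Ugcg lie below 0 and St3gal5 above 0 in all 3 panels, and the intervals of B4galnt1 and B3galt4 shrink with the block.

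B4galnt1 and B3galt4, which act in sequence on the ganglioside core, differed between replicates as much as between populations. B4galnt1, the synthase of GM2 and GD2, read 10.30, 10.46 and 10.85 in Treg replicates 1, 2 and 4. It read 10.68, 10.83, 11.14 and 11.20 in CD45RBlow replicates 1 to 4, and 10.53, 10.86, 11.12 and 11.39 in CD45RBhigh replicates 1 to 4. Within each population the arrays of replicates 1 and 2 lay below those of replicates 3 and 4, and the populations overlapped. The log2 fold change was -0.44 (SE 0.21, limma adjusted p = 0.184) in Treg against CD45RBhigh cells, -0.43 (SE 0.21, limma adjusted p = 0.254) in Treg against CD45RBlow cells and -0.01 (SE 0.19, limma adjusted p = 0.982) in CD45RBlow against CD45RBhigh cells.

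B3galt4, which adds galactose to GM2 and GD2 to give GM1 and GD1b, read 7.09, 7.24 and 7.94 in Treg replicates 1, 2 and 4. It read 7.45, 7.59, 8.05 and 8.31 in CD45RBlow replicates 1 to 4, and 7.52, 7.81, 8.60 and 8.47 in CD45RBhigh replicates 1 to 4. The same split between replicates was seen in all 3 populations, and the populations overlapped. The log2 fold change was -0.68 (SE 0.30, limma adjusted p = 0.163), -0.43 (SE 0.30, limma adjusted p = 0.469) and -0.25 (SE 0.28, limma adjusted p = 0.567) in the 3 comparisons.

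Arrays of the same replicate number deviated together from their population means, so the numbers were taken to pair the arrays. Other numbers of the same replicate set did so too, with correlations of 0.20 to 0.58 beside 0.31 to 0.56 for same-numbered arrays. Titles of samples with the same number also end in the same digits across populations, but what these digits mark is not stated. The pairing is therefore an assumption, and the pair counts below rest on it. With the number as a block, B4galnt1 fell in Treg cells, by 0.38 on the log2 scale against CD45RBhigh cells (95% interval -0.55 to -0.21, limma adjusted p = 0.00298) and by 0.37 against CD45RBlow cells (-0.54 to -0.20, limma adjusted p = 0.00521). It was lower in the Treg array of all 3 pairs in both comparisons. B3galt4 fell in the same fit by 0.56 against CD45RBhigh cells (-0.75 to -0.36, limma adjusted p = 0.000643) and by 0.31 against CD45RBlow cells (-0.50 to -0.11, limma adjusted p = 0.0316), again in 3 of 3 pairs. Between CD45RBlow and CD45RBhigh cells B3galt4 fell by 0.25 (-0.43 to -0.08, limma adjusted p = 0.0441), lower in 4 of 4 pairs, while B4galnt1 did not pass (-0.01, interval -0.16 to 0.14, limma adjusted p = 0.919). The B3galt4 value in that last comparison was the same with the replicate set as the block, without a call (-0.25, limma adjusted p = 0.0671). With the number as a random block (estimated correlation 0.21) neither gene passed in any comparison. In that fit B4galnt1 stood at -0.42 (limma adjusted p = 0.0831) and B3galt4 at -0.64 (0.0774) in Treg against CD45RBhigh cells, and at -0.41 (0.114) and -0.38 (0.339) in Treg against CD45RBlow cells. With the number as a fixed block 5 of the 10 genes passed in both comparisons with Treg cells and 4 in CD45RBlow against CD45RBhigh cells. In the fixed-block fit 26.5%, 19.7% and 21.7% of all probe sets passed.

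The step between the replicate sets was measured for these 2 genes with the population in the model. The split was chosen after the data were seen, so the adjusted p-values for this step are descriptive. Replicates 3 and 4 (n = 5) exceeded replicates 1 and 2 (n = 6) by 0.48 for B4galnt1 (SE 0.08, limma adjusted p = 0.00131) and by 0.76 for B3galt4 (SE 0.08, limma adjusted p = 8.70e-05). None of the other 8 genes passed this test in limma, with the lowest adjusted p at 0.258 for B4galt5. What the replicate sets mark is not stated in the labels. Within replicates 1 and 2 alone, Treg against CD45RBhigh gave -0.32 for B4galnt1 (adjusted p = 0.143, limma) and -0.50 for B3galt4 (adjusted p = 0.0285, limma). Within replicates 3 and 4 alone, with 1 Treg array whose spread is taken from the other groups, the values were -0.40 (adjusted p = 0.195, limma) and -0.60 (adjusted p = 0.107, limma). With CD45RBlow in place of CD45RBhigh cells, B4galnt1 stood at -0.38 (adjusted p = 0.118, limma) and B3galt4 at -0.35 (adjusted p = 0.118, limma) within replicates 1 and 2. The corresponding values within replicates 3 and 4 were -0.32 (adjusted p = 0.357, limma) and -0.24 (adjusted p = 0.474, limma).

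**Figure D3:**
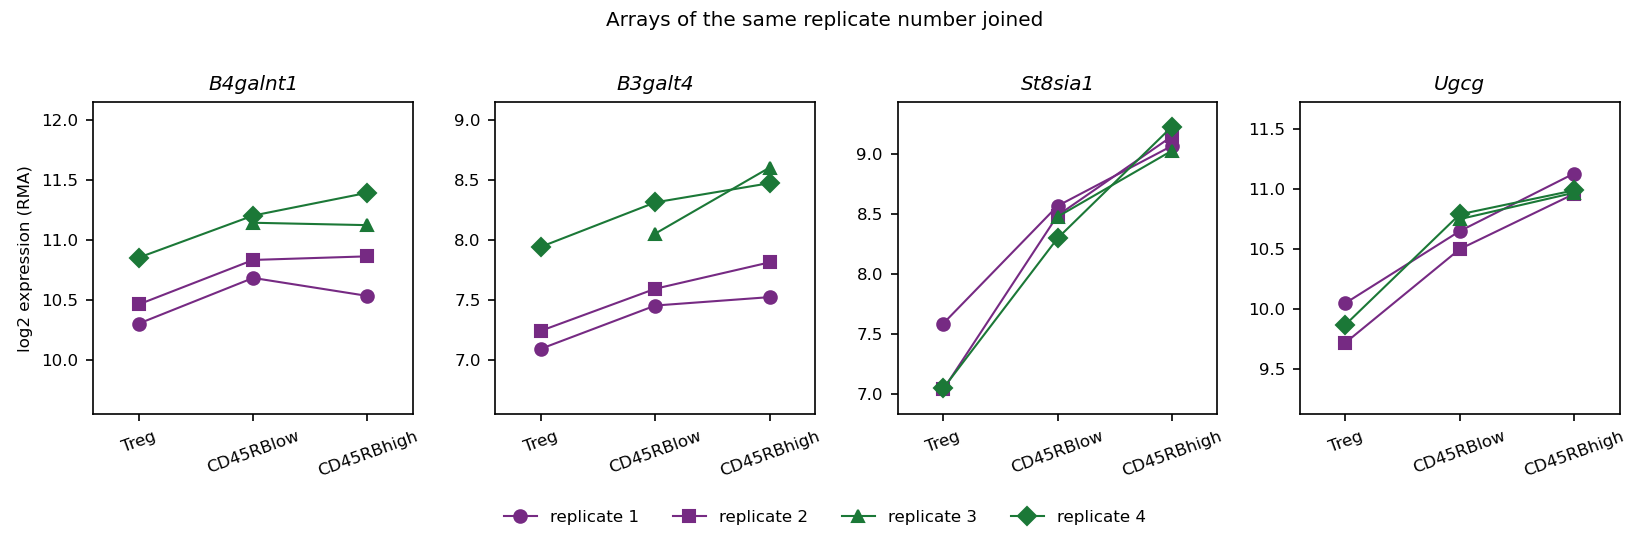
Log2 expression of B4galnt1, B3galt4, St8sia1 and Ugcg with arrays of 1 replicate number joined across the populations, replicates 1 and 2 in purple and 3 and 4 in green. For B4galnt1 and B3galt4 the green lines lie above the purple ones, and the Treg array is lowest in each line that has one. For St8sia1 and Ugcg the colours are mixed in Treg and CD45RBhigh arrays, with St8sia1 in Treg replicate 1 apart at 7.59. In CD45RBlow arrays green lies above purple for Ugcg and below it for St8sia1.

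The lactosylceramide synthases did not pass the test in any comparison. B4galt5, the main enzyme of this step in most mouse tissues, ranged from 8.38 to 8.58 in Treg, 8.51 to 8.99 in CD45RBlow and 8.39 to 8.81 in CD45RBhigh arrays. Its difference was -0.08 (95% interval -0.35 to 0.19) in Treg against CD45RBhigh cells and -0.25 (-0.52 to 0.01) in Treg against CD45RBlow cells, and 0.18 (-0.07 to 0.42) in CD45RBlow against CD45RBhigh cells. B4galt6, its close paralog, lay between 2.88 and 3.17 on all arrays. That is under 3.64, the first quartile of all values, which is read here as near background, so a difference in B4galt6 could not be seen well.

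No gene of the sulfatide branch passed in the fit without a block, and Ugt8a was near background. Ugt8a, which starts this branch, lay between 2.26 and 2.52 on all arrays. Gal3st1, the sulfotransferase, averaged 5.06 ± 0.067 (SD, n = 3) in Treg, 4.90 ± 0.094 (SD, n = 4) in CD45RBlow and 5.11 ± 0.11 (SD, n = 4) in CD45RBhigh cells, and the populations overlapped. Its largest difference was -0.21 in CD45RBlow against CD45RBhigh cells (SE 0.07, limma adjusted p = 0.0837). That difference passed without CD45RBhigh replicate 4 (-0.26, adjusted p = 0.0338, limma) and within replicates 1 and 2 alone (-0.28, adjusted p = 0.0488, limma). With the number as a random block it passed too (-0.21, adjusted p = 0.0499, limma). St8sia5, a sialyltransferase of late ganglioside synthesis best known from brain, ranged from 5.99 to 6.13 in Treg, 5.84 to 5.99 in CD45RBlow and 5.99 to 6.18 in CD45RBhigh arrays. It differed by -0.17 in CD45RBlow against CD45RBhigh cells (SE 0.06, limma adjusted p = 0.0881), by 0.14 in Treg against CD45RBlow cells (limma adjusted p = 0.227) and by -0.03 in Treg against CD45RBhigh cells (limma adjusted p = 0.787). When the arrays were quantile normalized once more, both genes passed in CD45RBlow against CD45RBhigh cells, Gal3st1 at -0.25 (adjusted p = 0.0229, limma) and St8sia5 at -0.30 (adjusted p = 0.0113, limma).

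Genes with the most similar profile were sought among all named genes, by the root mean square difference over the 11 arrays after each gene was centred on its mean. They are a description and were chosen for that likeness. Closest to Ugcg were Il7r, the interleukin-7 receptor (0.13), Galnt10, which starts mucin-type O-glycans (0.15), and Tgfbr2, a TGF-beta receptor (0.15), where Ugcg itself varied by 0.47 around its mean. Closest to St8sia1 were the TGF-beta family receptor Acvrl1 (0.27), Il7r (0.29) and Cmah (0.30), where St8sia1 varied by 0.77. Closest to St3gal5 were the chondroitin sulfotransferase Chst11 (0.16) and Fut7, a fucosyltransferase of selectin ligands (0.17), where St3gal5 varied by 0.33.

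Other enzymes that build glycolipid chains or act on gangliosides moved in both directions. Of 21 measured genes, 2 rose and 4 fell in Treg against CD45RBhigh cells, 3 rose and 3 fell in Treg against CD45RBlow cells, and 4 rose and 1 fell in CD45RBlow against CD45RBhigh cells. Over all probe sets 10.3% rose and 8.59% fell in the first comparison, 6.74% and 5.78% in the second, and 7.62% and 4.98% in the third. With the block 3 and 5, 3 and 3, and 6 and 2 of the 21 genes rose and fell, beside 151 and 179, 112 and 133, and 125 and 146 of all probe sets. Many of these enzymes also act on glycoproteins, so their transcripts do not belong to glycolipids alone. The list medians were -0.01, 0.02 and -0.05.

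St3gal2, which sialylates GM1 and GD1b further along the chain, averaged 7.73 ± 0.09 (SD, n = 3) in Treg, 7.06 ± 0.23 (SD, n = 4) in CD45RBlow and 6.59 ± 0.23 (SD, n = 4) in CD45RBhigh cells. It rose in Treg cells against both (limma adjusted p = 0.000112 for CD45RBhigh and 0.00778 for CD45RBlow). Its rise of 0.47 in CD45RBlow over CD45RBhigh cells (limma adjusted p = 0.0380) held in 2 of the 11 fits that left out 1 array, those without CD45RBlow replicate 3 or CD45RBhigh replicate 4. Cmah, which converts one form of sialic acid into its hydroxylated form, averaged 8.47 ± 0.17 (SD, n = 3) in Treg, 9.18 ± 0.18 (SD, n = 4) in CD45RBlow and 9.84 ± 0.24 (SD, n = 4) in CD45RBhigh cells. It was lower in Treg than in CD45RBhigh cells (limma adjusted p = 2.79e-05) and than in CD45RBlow cells (0.00584), and lower in CD45RBlow than in CD45RBhigh cells (0.00624). The sialyltransferase St3gal6 stood at -2.64 and -3.27 in Treg cells against CD45RBhigh and CD45RBlow cells and at 0.63 in CD45RBlow against CD45RBhigh cells, all past the threshold. B4galt4, a galactosyltransferase that can act on glycolipids, rose by 1.22 and 0.77 in Treg cells against CD45RBhigh and CD45RBlow cells. Its rise of 0.45 in CD45RBlow over CD45RBhigh cells lost its call without CD45RBlow replicate 1 or 2 or CD45RBhigh replicate 3 or 4. B3galt5, which makes type 1 and globo-series chains, rose by 0.27 in CD45RBlow over CD45RBhigh cells (limma adjusted p = 0.00940).

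**Figure D4:**
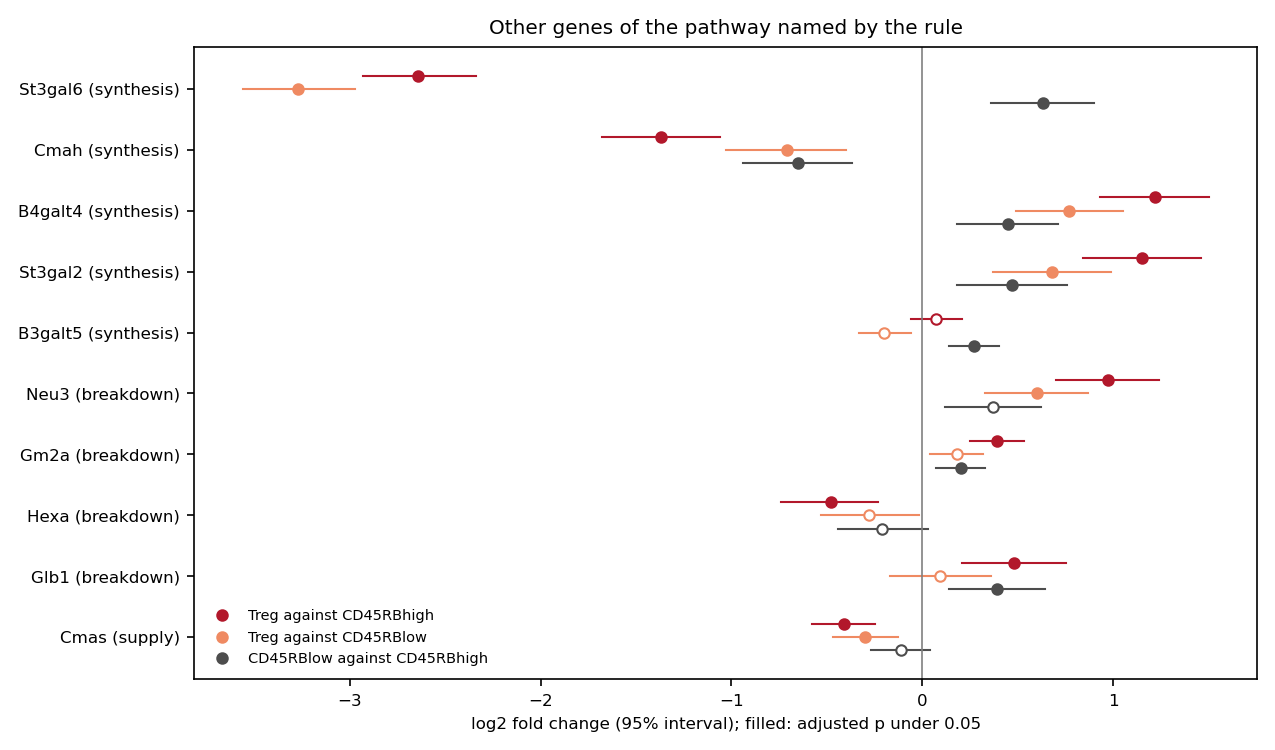
Log2 fold changes with 95% intervals for 10 other pathway genes named by the rule, in the 3 comparisons, filled where the adjusted p is under 0.05. St3gal6 and Cmah lie below 0 in both comparisons with Treg cells, and B4galt4, St3gal2 and Neu3 above 0.

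Of 13 measured genes for glycosphingolipid breakdown, 4 rose and 3 fell in Treg against CD45RBhigh cells in limma, where 18.9% of all probe sets passed. In Treg against CD45RBlow cells 2 rose and 0 fell, and in CD45RBlow against CD45RBhigh cells 2 rose and 0 fell. Over all probe sets 12.5% and 12.6% passed in these 2 comparisons. At an unadjusted p under 0.05 the counts were 3 higher and 2 lower, and 3 higher and 1 lower. Of all probe sets 22.6% and 28.4% passed at that level. With the block 4 rose and 4 fell in Treg against CD45RBhigh cells. In Treg against CD45RBlow cells 3 rose and 3 fell with it, and in CD45RBlow against CD45RBhigh cells 3 and 2. The blocked shares over all probe sets were 26.5%, 19.7% and 21.7% in the 3 comparisons. Neu3, a sialidase of the plasma membrane that acts on gangliosides, averaged 4.85 ± 0.22 (SD, n = 3) in Treg, 4.25 ± 0.20 (SD, n = 4) in CD45RBlow and 3.88 ± 0.09 (SD, n = 4) in CD45RBhigh cells. It was higher in Treg than in CD45RBhigh cells by 0.97 (SE 0.12, limma adjusted p = 0.000137) and than in CD45RBlow cells by 0.60 (SE 0.12, limma adjusted p = 0.00693). Its difference of 0.37 between CD45RBlow and CD45RBhigh cells missed the threshold (limma adjusted p = 0.0536) and passed with the block (limma adjusted p = 0.0329). Gm2a, the activator protein of GM2 breakdown, rose by 0.39 in Treg over CD45RBhigh cells, whereas Hexa, the hexosaminidase subunit it assists, fell by 0.48. The Hexa call ended without Treg replicate 1 (-0.45, adjusted p = 0.0549, limma) or 2 (-0.42, adjusted p = 0.0661, limma). With the block Hexa also fell by 0.25 in Treg against CD45RBlow cells (limma adjusted p = 0.0324) and by 0.21 in CD45RBlow against CD45RBhigh cells (limma adjusted p = 0.0402). In CD45RBlow against CD45RBhigh cells Gm2a rose by 0.20 (limma adjusted p = 0.0442) and Glb1, the lysosomal beta-galactosidase that acts on GM1, by 0.39 (limma adjusted p = 0.0443). Both calls depended on single arrays. The Gm2a call held only without Treg replicate 2, CD45RBlow replicate 4 or CD45RBhigh replicate 4, and the Glb1 call only without CD45RBhigh replicate 4, among the 11 fits that left out 1 array.

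Of the list for ceramide and sphingomyelin supply 5 of 23 genes were measured, all of them for sugar nucleotides and their transport, and its ceramide genes were not used here. Cmas, which activates sialic acid, fell in Treg cells by 0.41 against CD45RBhigh cells (limma adjusted p = 0.00238). Against CD45RBlow cells it fell by 0.30 (limma adjusted p = 0.0228). Without Treg replicate 2 or 4, or CD45RBlow replicate 1 or 4, this difference no longer passed. It was -0.15 (adjusted p = 0.110, limma) when the arrays were quantile normalized once more. In limma 0 of the 5 genes rose in any comparison, with 2 higher in Treg than in CD45RBhigh cells at an unadjusted p under 0.05 and 0 in the other comparisons. With the block 1 of the 5 genes rose in each comparison with Treg cells, beside 151 and 112 of all 1246 probe sets.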

How the data were processed

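Each of the 11 samples was hybridised to 1 custom Affymetrix glycan gene chip from 0.5 ug of total RNA. The authors deposited 1 log2 value for each probe set, computed with RMA (Robust Multichip Average), per the series text. RMA corrects background, normalizes quantiles and summarises probes. Its version is not given in the sources used here. Quantile normalization over a chip rich in glycosylation genes can mute shifts shared by most of its genes. No further scaling was applied, and array medians lay between 4.85 and 4.94.

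RefSeq transcripts in the identifiers named 963 of 1246 probe sets, and where a gene had several the one with the highest mean was used. limma 3.58.1 (R 4.3.3) estimated a mean for each population from the 11 arrays together (two-sided, empirical Bayes, prior degrees of freedom 2.87, residual 8), with Benjamini-Hochberg adjustment over all probe sets and intervals at 95%. Precision is limited by the number of arrays. The fit was tested on simulated data for Treg against CD45RBhigh cells, with independent noise on each array. No replicate effect was simulated, so the test does not cover the split between replicate sets. Same-numbered arrays of different populations correlated at 0.31 to 0.56 in their deviations from population means (10 pairs, median 0.46), against 0.20 to 0.58 for other numbers of the same replicate set and -0.65 to -0.18 across sets. All 10 same-numbered pairs exceed 0.1, so blocked values are given. The labels do not say what a number marks. Genes named beside the members were, per list and comparison, up to 4 past the threshold by adjusted p, of which 1 is not reported here. The members, lists and rules were chosen with earlier results of these data known. Promoters were read from RefSeq, build GRCm38.p6. Figures were drawn with matplotlib 3.10.9.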

Additional observations from a re-analysis of the deposited data

Results flagged for a closer look

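Of 48 sets of 4 arrays examined for a lone value, 4 held one, and chance gives about 1 in 20. For Ugt8a, CD45RBlow replicate 3 read 2.52, where the other 3 arrays read 2.26 to 2.30, and CD45RBhigh replicate 2 read 2.36, where the others read 2.42 to 2.43. All these Ugt8a values are near background. For St3gal6, CD45RBhigh replicate 4 read 7.18, where the others read 7.59 to 7.63. For B4galt4, CD45RBhigh replicate 3 read 4.06, where the others read 4.31 to 4.35.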

How the results depend on the processing

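Ugcg, St3gal5 and St8sia1 kept their direction under all 23 alternatives in each comparison, and lost a call in 9 of 207 fits, all in replicate subsets or with 1 array left out. With the replicate number as a block the members called were 5 in Treg against CD45RBhigh, 5 in Treg against CD45RBlow and 4 in CD45RBlow against CD45RBhigh cells, where 3 were called in each without it. Over all probe sets the replicate block gave 330, 245 and 271 calls, against 235, 156 and 157. The fixed block gave B4galnt1 a call in 2 and B3galt4 in 3 comparisons and changed no other member's call. As a random block the number gave neither gene a call, but gave Gal3st1 a call in CD45RBlow against CD45RBhigh cells. With the replicate set as a block, which did not call B3galt4 in CD45RBlow against CD45RBhigh cells, 5, 5 and 3 members and 319, 238 and 247 probe sets passed. Quantile normalization once more gave 5 members in CD45RBlow against CD45RBhigh cells, and 43.2% of its calls over all probe sets were then higher, against 60.5%. Replicates 3 and 4 alone gave 1 member in that comparison, and 88, 49 and 63 probe sets in the 3 comparisons, a fit with fewer arrays. Leaving out each array gave 3 members in both comparisons with Treg cells, 2 to 4 in the other, and 164 to 227, 110 to 162 and 113 to 151 probe sets.

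Signs turned for values that passed in neither fit. In Treg against CD45RBhigh cells B4galt5 was 0.03 in replicates 1 and 2 alone, and St8sia5 and Gal3st1 were 0.09 and 0.08 in replicates 3 and 4 alone. B4galt6 was -0.03 in replicates 1 and 2 alone against CD45RBlow cells, and in CD45RBlow against CD45RBhigh cells it was 0.01 after quantile normalization and 0.03 in replicates 1 and 2 alone, where B4galnt1 was 0.06. Leaving out 1 array gave, in Treg against CD45RBhigh cells, -0.13 to 0.01 for B4galt5 and -0.02 to 0.09 for B4galt6. In Treg against CD45RBlow cells it gave -0.02 to 0.09 for B4galt6 and -0.28 to 0.20 for Cd44, and in CD45RBlow against CD45RBhigh cells -0.16 to 0.13 for B4galnt1 and -0.03 to 0.03 for B4galt6. The cause was not tested. Other probe sets of a member could not be tried, since each had 1.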
